A study of Bos taurus with 20 samples.

Results

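Genes that mark B cells were followed in the endometrium, the lining of the uterus, of 10 cows. The set was MS4A1, CD79A, CD79B, PAX5, BLK, CD22, CR2 and BANK1, and a gene entered if the gene name printed on the array for a probe matched one of these 8 names. Of the 8 genes, 6 were found in this way, with 9 of the 43653 probes of the array. To enter the tests a probe had to give a signal well above background on 8 or more of the 20 arrays. MS4A1, CD79A, PAX5 and BLK passed among 19391 genes tested. BANK1 was well above background on 5 arrays and CR2 on 0, so both are described below without a test. CD79B carries another name on the array, LOC509801, and was recognised through its RefSeq gene number; it lies outside the matching by name and its values are given as an addition. CD22 was not analysed here.

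Each cow was sampled early after calving, on a day between 42 and 86 (mean 60.1 ± 13.3, SD, n = 10), and again late, between day 343 and day 436 (mean 388.9 ± 27.5, SD, n = 10). All biopsies came from Bos taurus females, were taken with forceps from the horn of the uterus next to the corpus luteum, and were timed by the design to 7 days after oestrus. No treatment was given in the labels, and breed and age are not given in the sources used here. RNA of the whole biopsy was labelled with Cy3 and hybridised to 1 array per biopsy. The level of a gene is the log2 processed signal minus the 75th percentile of its array, so that 1 unit is a 2-fold difference of signal. On each array 71.8% to 80.2% of the spots counted as well above background. The cows are numbered 1 to 10 as in the sample titles. In bulk tissue of this kind, fewer B cells and less RNA per B cell cannot be told apart.

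B cells carry an antibody on their surface as an antigen receptor. CD79A and CD79B form the signalling pair of that receptor, and paired tyrosines in their tails are phosphorylated by Src-family kinases such as BLK and LYN, which then recruit SYK and BTK. CD22 and CR2 are coreceptors that damp and amplify the signal, BANK1 is a scaffold protein that links the receptor to kinases, MS4A1 is the membrane protein CD20, and PAX5 is the transcription factor that holds cells in the B lineage. In the uterus, B cells are usually sparse and lie scattered or in small lymphoid aggregates, while antibody is secreted by plasma cells.

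The probes on which the levels rest are oligonucleotides of 60 bases, placed by the array's annotation on the bovine build HGSC Btau_3.1. The sequences below belong to members whose behaviour differed between cows, and to PAX5, which behaved otherwise. In the CD79A sequence the capitals mark the 2 tyrosine codons of the receptor's signalling motif, with 7 codons between the end of the first tyrosine motif and the second tyrosine; the other sequences are in lower case throughout.
MS4A1, second probe (chr15:84166872-84168085, plus strand): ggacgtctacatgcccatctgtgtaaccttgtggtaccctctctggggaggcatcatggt
CD79A, second probe (chr18:51076548-51076758, minus strand): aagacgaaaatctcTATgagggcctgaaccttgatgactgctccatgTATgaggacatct
PAX5 (chr8:63785420-63815322, minus strand): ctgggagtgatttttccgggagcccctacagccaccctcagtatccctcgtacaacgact
BANK1 (chr6:24492639-24492698, minus strand): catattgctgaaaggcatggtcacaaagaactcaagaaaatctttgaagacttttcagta
The first 3 of these probes map to spans of 1214, 211 and 29903 bases, longer than the probe itself, so each crosses a junction between exons on that build. The brighter CD79A probe, which was the one tested, lies on chromosome 18 from 51076126 to 51076185 and holds the letters AATAAA, as do 9.35% of all probes on the array in the direction of the probe. The tested MS4A1 probe lies on chromosome 15 from 84172259 to 84172318, the BLK probe on chromosome 8 from 7701750 to 7701809 and the CD79B probe on chromosome 19 from 49674863 to 49674922. The 2 CR2 probes have no position in the annotation.

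In most cows the B cell genes were low and varied from biopsy to biopsy, while 1 animal, cow 3, had the highest level of MS4A1, CD79A, CD79B, BLK and BANK1 in both of its biopsies. PAX5 did not follow this pattern. No member differed between the late and the early period past the threshold. Cow 3 was singled out after its values were seen, so its distance from the other cows is a description, and the comparisons of periods, the recurrence and the day slopes are given with and without it.

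MS4A1, the CD20 surface protein, spanned a wide range. Its early levels ran from -7.32 in cow 4 to -0.93 in cow 3 with a median of -4.60, and its late levels from -7.22 in cow 8 to 0.12 in cow 3 with a median of -5.21. The 9 other cows lay between -7.32 and -3.89 early and between -7.22 and -3.38 late, so cow 3 did not overlap with them in either period. Against the median of the other 9 cows, MS4A1 in cow 3 was 12.8-fold higher early and 44.2-fold higher late. The tested probe was well above background on 17 arrays, all but the early array of cow 4 and the late arrays of cows 8 and 10. The second, dimmer MS4A1 probe, whose sequence is printed above, was well above background on 12 arrays and again had its highest level in cow 3, at -3.98 early and -2.96 late. Its next highest levels were -5.66 early and -5.59 late.

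CD79A, which carries the antibody receptor's signal into the cell, was well above background on all 20 arrays. Early it ran from -2.62 in cow 2 to -0.52 in cow 3, with a median of -2.01, and late from -2.87 in cow 9 to -0.41 in cow 3, with a median of -2.19. The other 9 cows reached at most -1.75 early and -1.51 late. Cow 3 was 2.90-fold above their median early and 3.58-fold late. The second CD79A probe, over the signalling motif, was well above background on 2 arrays, both of cow 3, at -4.73 early and -5.13 late. Set against the lowest signals that count as above background on the other arrays, cow 3 was at least 4.10-fold higher early and at least 2.94-fold higher late by that probe.

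CD79B, the partner of CD79A in the signalling pair, was well above background on 19 arrays. Its levels ran from -6.32 in cow 4 to -3.37 in cow 3 early (median -5.46) and from -6.53 in cow 2 to -3.11 in cow 3 late (median -5.63). Cow 3 stood clear of the 9 other cows in both periods and was 4.26-fold above their median early and 5.86-fold late.

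BLK, the Src-family kinase that phosphorylates the receptor pair and is also found in some gamma-delta T cells, was well above background on all 20 arrays. Early it ran from -4.24 in cow 7 to -1.61 in cow 3, with a median of -3.70. Late it ran from -5.44 in cow 8 to 0.11 in cow 3, with a median of -4.12. The early groups were not as clearly parted as for MS4A1, because cow 6 stood at -1.64 early, 0.03 below cow 3, and at -3.52 late, 3.63 below it. BLK in cow 3 was 4.29-fold above the median of the other cows early and 20.2-fold late.

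BANK1, the scaffold downstream of the receptor, was well above background in both biopsies of cow 3, at -4.37 early and -4.12 late. Elsewhere it reached that mark only on the early array of cow 8, at -6.39, and the late arrays of cows 5 and 6, at -6.91 and -6.43. With the dim arrays set no lower than the lowest signal that counts as above background, cow 3 was at least 5.29-fold above the median of the others early and at least 5.94-fold late.

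PAX5, the lineage factor, was well above background on all 20 arrays and nearly level across them. It ran from -4.81 in cow 5 to -4.11 in cow 4 early (median -4.59) and from -5.01 in cow 9 to -4.38 in cow 4 late (median -4.76). The SD over cows was 0.21 early and 0.23 late, against 1.66 and 2.23 for MS4A1. Cow 3 was 3rd of 10 early, at -4.55, and 6th of 10 late, at -4.87, and the cow with the highest level in both periods was cow 4. PAX5 was read by a single probe, and whether that probe follows PAX5 mRNA was not tested.

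CR2, the complement receptor of B cells and follicular dendritic cells, was not well above background on any array by either probe. Its levels lay between -9.45 and -7.44 by one probe and between -9.37 and -8.43 by the other. The value of -7.44 was the early array of cow 3, and its late array, at -9.09, lay among the others.

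**Figure D1:**
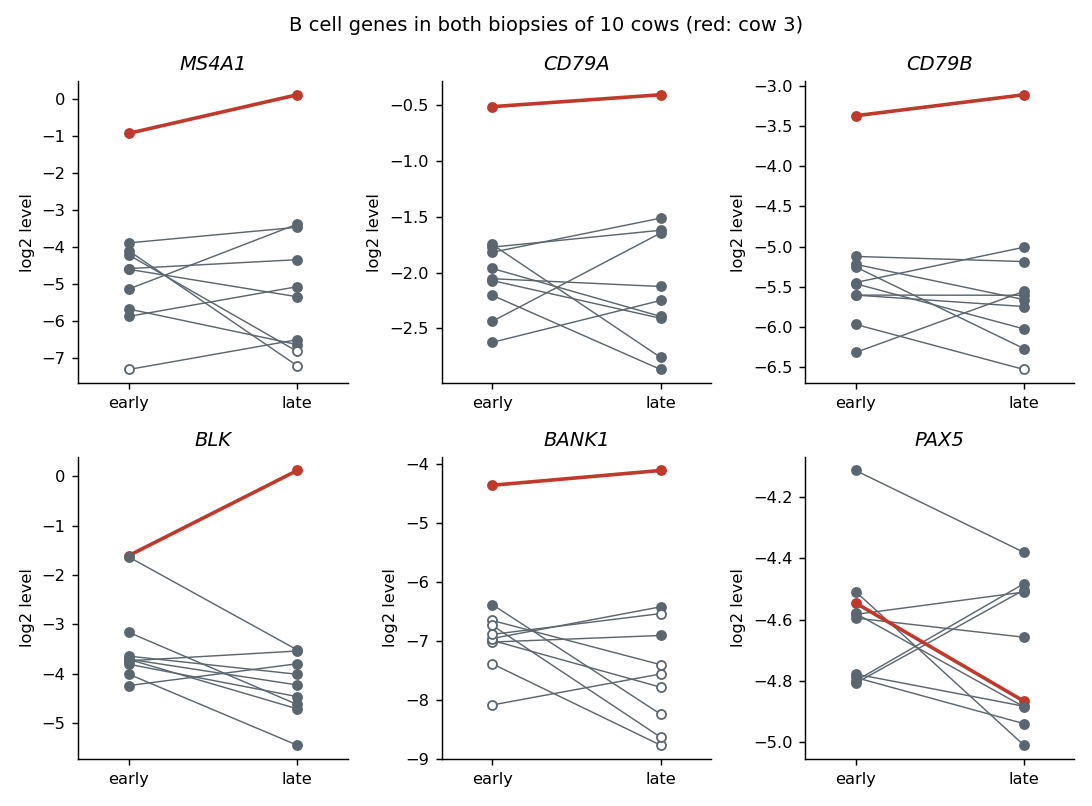
Log2 level of 6 B cell genes in the early and the late biopsy of each cow, with a line joining the biopsies of 1 cow, cow 3 in red, and open points for spots not well above background. Cow 3 has the highest point in both periods in each panel but PAX5, and in BLK its early point coincides with that of cow 6.

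Late was compared with early within cows, to ask whether B cell transcripts change over the first year after calving. Of the 4 members tested, 0 passed an adjusted p of 0.05 in limma, paired by cow with Benjamini-Hochberg adjustment over all genes, and 0 had an unadjusted p under 0.05. Over all genes 1.3% passed, 0.768% lower and 0.531% higher late, and 22.6% had an unadjusted p under 0.05. All 4 estimates were below 0, as were 47.1% of estimates over all genes.

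MS4A1 had a log2 difference of -0.23 ± 0.45 (SE, n = 10 cows; 95% interval -1.23 to 0.76; limma adjusted p = 0.782), with 4 cows lower late and 6 higher. Its second probe gave the opposite sign, 0.076 ± 0.33 (limma adjusted p = 0.908), and the mean of both probes gave -0.080. The interval runs from a late level of 0.427 times the early one to 1.69 times, so changes within that span were not resolved by 10 cows. CD79A was more tightly measured, at -0.08 ± 0.16 (95% interval -0.43 to 0.27; limma adjusted p = 0.793), with 5 cows lower and 5 higher. PAX5 differed by -0.10 ± 0.09 (95% interval -0.30 to 0.10; limma adjusted p = 0.520), lower late in 7 of 10 cows.

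BLK had the most negative estimate of the members, -0.50 ± 0.30 (95% interval -1.16 to 0.17; limma adjusted p = 0.348), and was lower late in 7 of 10 cows. It rose from early to late in cow 3 by 1.72 on the log2 scale, the largest rise of any cow. Without cow 3 the BLK difference was -0.74 ± 0.23 (95% interval -1.26 to -0.22; limma p = 0.00970, adjusted p = 0.156), which did not pass the threshold; 18.5% of all genes had an unadjusted p under 0.05 in that fit. The same fit gave MS4A1 -0.38 ± 0.48, CD79A -0.10 ± 0.17 and PAX5 -0.08 ± 0.10. CD79B, lower late in 7 of 10 cows, differed by -0.13 ± 0.16 (limma adjusted p = 0.638) with all cows and by -0.18 ± 0.17 without cow 3.

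The arrays lay on 5 slides, of which only slide 3 held both periods, early cows 9 and 10 and late cows 1 and 2. Within slide 3 the late minus early differences were -0.26 for MS4A1, -0.31 for CD79A, -0.12 for PAX5 and -0.29 for BLK, none past the threshold. With slide added to the cow term the values were -1.67, -0.21, 0.54 and -2.20, again with no call, and PAX5 changed sign. Period and slide are nearly confounded in this layout.

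**Figure D2:**
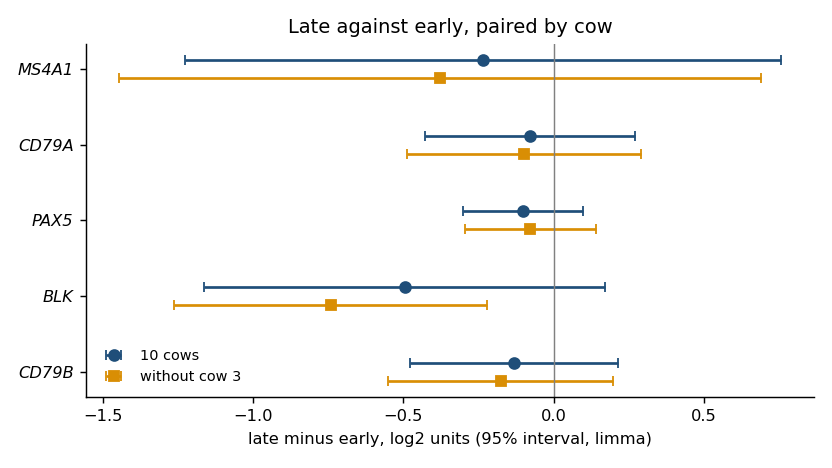
Late minus early log2 difference of the tested members and CD79B with 95% intervals from limma, paired by cow, for 10 cows (blue circles) and without cow 3 (orange squares). Every interval spans 0 apart from that of BLK without cow 3, whose adjusted p was 0.156.

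The second question was whether a cow with a high early level also had a high late level. Pearson's r between the early and late levels over the 10 cows was 0.70 for MS4A1 (Spearman's rho 0.24), 0.68 for CD79A (rho 0.37), 0.71 for BLK (rho 0.45) and 0.25 for PAX5 (rho -0.15). Over all genes the median r was 0.23. By permutation of the pairing, r had p = 0.0372 for MS4A1, 0.0472 for CD79A, 0.0278 for BLK and 0.525 for PAX5, in a family of 19184 genes. After Benjamini-Hochberg adjustment over these genes the permutation values were 0.346, 0.370, 0.317 and 0.838. None of the 4 members passed, against 0.292% of all genes, and 3 of 4 had an unadjusted p under 0.05, against 13.2% of all genes (12.7% with r above 0). The rank correlations had permutation p between 0.192 for BLK and 0.685 for PAX5, and adjusted p between 0.612 and 0.915, so that 0 of 4 passed, against 0.0209% of all genes.

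The correlations of MS4A1, CD79A and BLK rested on cow 3, and that of PAX5 on cow 4, without which it was -0.35. Without cow 3 r was 0.21 for MS4A1, 0.05 for CD79A, 0.38 for BLK and 0.29 for PAX5, with exact permutation p between 0.297 and 0.896. Without the 2 cows farthest from the early median, cow 3 and cow 4, MS4A1 had r = -0.0088. CD79A had r = 0.018 without cows 2 and 3, BLK -0.078 without cows 3 and 6, and PAX5 -0.20 without cows 4 and 5. For CD79B r was 0.83 over 10 cows (permutation p = 0.0269, adjusted p = 0.313), 0.23 without cow 3 and 0.50 without cows 3 and 4. Over the 9 other cows 0 of the 4 tested members passed after adjustment, while 21 of 19188 genes did.

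**Figure D3:**
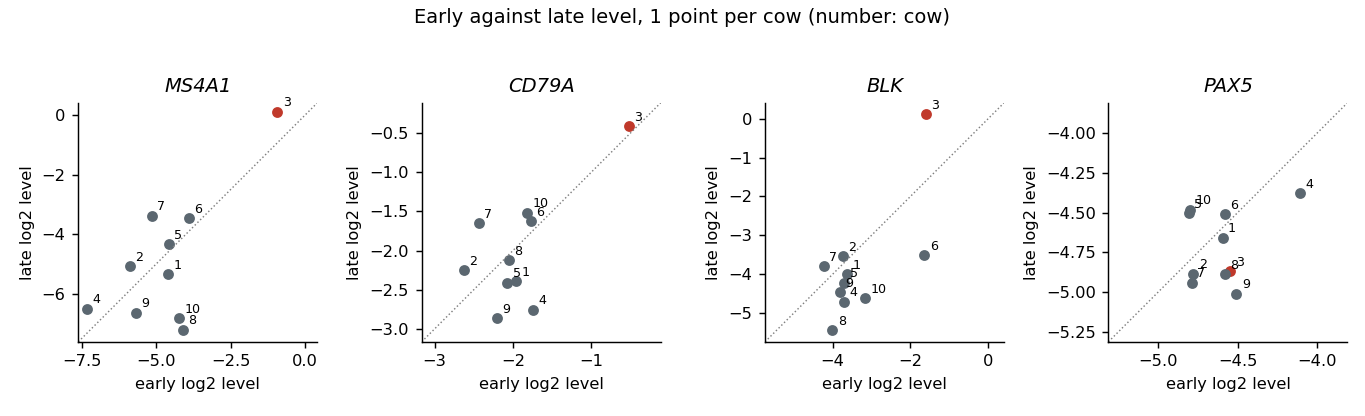
Late log2 level against early log2 level for MS4A1, CD79A, BLK and PAX5, 1 numbered point per cow, cow 3 in red, and a dotted line of equal levels. Cow 3 lies apart at the top right for MS4A1, CD79A and BLK (r = 0.70, 0.68 and 0.71 with it, 0.21, 0.05 and 0.38 without it) and among the other cows for PAX5.

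The genes for which 1 cow was highest in both biopsies were then counted for each cow, over all genes. Cow 3 had the highest level of 10 in both biopsies in 2.11% of 19184 genes, or 405 genes, while the other cows had between 114 and 555 such genes. Counting only genes in which the lead over the next cow was at least 1 log2 unit in both biopsies, cow 3 had 39 genes (0.203%) and each other cow between 0 and 4. Of the tested members, MS4A1, CD79A and BLK were among the 405, and MS4A1 and CD79A among the 39. CD79B was among the 39 as well. By RefSeq naming 25 of the 39 had a gene symbol, and 11 of the 39 belong to 1 of the gene lists used here.

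**Figure D4:**
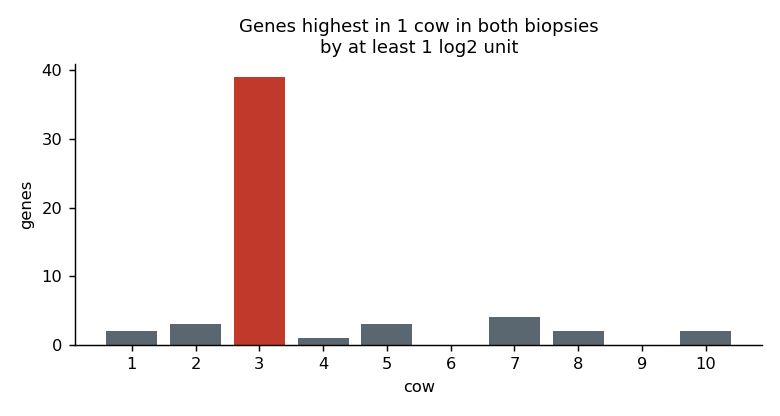
Number of genes, of 19184, in which a cow had the highest level of 10 in both biopsies by at least 1 log2 unit, by cow. The bar of cow 3 (red) stands at 39 genes and those of the other cows between 0 and 4.

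Ranked by the smaller of the early and the late lead over the next cow, the first gene was TNFRSF13C, the BAFF receptor through which B cells receive survival signals. Late leads alone were larger for other genes, among them MGARP, a mitochondrial protein, with 5.23 log2 units, which is in none of the lists and was named after its values were seen. In cow 3 the TNFRSF13C level was 0.20 early and 0.56 late, 3.70 and 3.80 log2 units above the median of the other cows and at least 3.13 above the next cow. BCL11A, a transcription factor needed for B cell development, was 3.56 and 4.80 above the median of the others. POU2AF1, the coactivator OBF-1 of B cells, was 3.26 and 4.06 above it. SPIB, an Ets-family factor, passed background on 5 arrays in each period and led the next cow by 1.86 and 1.59 log2 units in cow 3. POU2AF1 and SPIB were named after their values were seen.

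Of 30 other B lineage genes, 18 were tested, and cow 3 had the highest level in both biopsies in 11 of the 17 that had a value on every array, against 2.11% of all genes. The median gene of that list was 1.49 log2 units above the other cows' median early and 1.40 late. The exceptions included BLNK, the receptor's adaptor protein, FCER2, the low-affinity IgE receptor CD23, and SWAP70, each below the median of the other cows in both biopsies, and VPREB3, which differed from it by 1.51 early and -0.10 late. Of 20 receptor signalling genes, cow 3 was highest in both biopsies in 9, with BTK, the kinase downstream of SYK, at 1.60 and 3.04 above the median of the others and SYK at 1.58 and 1.93.

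Late against early, 0 of 18 other B lineage genes, 0 of 21 receptor signalling genes and 0 of 14 germinal centre and follicle genes passed the threshold in limma, with all cows or without cow 3. Over all genes 1.3% passed with all cows and 0.304% without cow 3. At an unadjusted limma p under 0.05, 1978 of all 19391 genes were lower late and 2398 higher. At that mark 5, 5 and 1 of the genes of these lists were lower late and 0 were higher. The smallest p values belonged to CD72, an inhibitory coreceptor (log2 difference -0.56 ± 0.15, SE; lower late in 9 of 10 cows; limma adjusted p = 0.0760), and CXCR5, the chemokine receptor that guides B cells into follicles (-0.71 ± 0.23; 7 of 10 cows; adjusted p = 0.121). Among the signalling genes they belonged to BTK (-0.62 ± 0.19; 9 of 10 cows; adjusted p = 0.106) and NFATC1, a calcium-responsive transcription factor (-0.40 ± 0.12; 8 of 10 cows; adjusted p = 0.110). The median difference was -0.21 in the B lineage list and -0.10 in the signalling list, against 0.02 over all genes.

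For recurrence, the median r of the other B lineage genes was 0.72 over 10 cows and 0.07 without cow 3, against 0.23 and 0.21 over all genes. Of the 17 genes, 0 passed the adjustment in either case, while over all genes 56 passed with cow 3 and 21 without it. Over 10 cows 7 of 17 had an unadjusted permutation p under 0.05, against 13.2% of all genes. TNFRSF13B, the TACI receptor, had r = 0.89 with cow 3 and 0.69 without it, and did not pass the permutation test after adjustment (adjusted p = 0.130 with cow 3). The plasma cell list differed in this respect: its median r was 0.54 with cow 3 and 0.60 without it. JCHAIN, which joins antibody units into dimers and pentamers and was named after its values were seen, had r = 0.91 with cow 3 and 0.94 without it (adjusted permutation p = 0.0568 and 0.114).

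Of 14 plasma cell genes tested, cow 3 led in both biopsies in 1, against 2.11% of all genes. That gene was CD38, a surface enzyme that other lymphocytes also carry. The mean level over that list ran from -0.72 to 0.24 early and from -0.83 to -0.19 late, with cow 3 in rank 2 and rank 3 of 10. JCHAIN stood at 3.15 early and 1.93 late in cow 3, a distance of -1.40 and -2.84 log2 units from the highest of the other cows. IGHM, the heavy chain of IgM that B cells also carry on their surface, was 3.99 and 3.80 above the median of the others, with cow 3 highest late and another cow highest early. IGHG1, an IgG heavy chain, was highest in cow 3 early, by 0.96, and not late. Antibody genes share sequence with each other, so the IGHM and IGHG1 signals are uncertain as to their genes. IGHM and IGHG1 were named after their values were seen.

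Among 14 germinal centre and follicle genes, cow 3 led in both biopsies in 3, against 2.11% of all genes. CXCL13, the chemokine that draws B cells into follicles, passed background on 7 arrays early and on 5 late, stood at -4.82 and -1.27 in cow 3 and led the next cow by 0.56 and 4.86 log2 units. CXCR5, its receptor, was 3.28 above early and 2.07 late, and CCR7, which guides lymphocytes to T cell zones, 1.16 and 2.27. CXCL13 was named after its values were seen. BCL6, the factor that defines germinal centre B cells, differed from the other cows' median by -0.20 early and -0.14 late. It was well above background on all 20 arrays. Other genes of the list lay above that median in both biopsies, RGS13 by 0.48 and 0.32, GCSAM by 0.37 and 0.38 and S1PR2 by 0.60 and 0.68. LTBR and FCER2 lay below it in both. The median gene of the list was 0.50 above it early and 0.67 late.

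Markers of other cells also differed between cow 3 and the rest, and late the median excess of the macrophage list was above that of the other B lineage list. Cow 3 led in both biopsies in 2 of 16 T cell genes (median excess 0.27 early and 0.44 late), 0 of 7 NK and cytotoxic genes (0.45 and 0.93) and 0 of 11 macrophage genes (0.58 and 1.74). It led in 1 of 6 plasmacytoid dendritic cell genes (0.37 and 0.18), 0 of 4 red blood cell genes (0.09 and 0.29) and 0 of 8 epithelial genes (0.04 and -0.24). Over all genes it led in both biopsies in 2.11%. The mean level over the T cell list ran from -2.42 to -1.58 early and from -2.50 to -1.76 late, with cow 3 in rank 2 and rank 1 of 10. Over the macrophage list it ran from -0.41 to 1.38 early and from -0.97 to 0.85 late, with cow 3 in rank 3 and rank 1. By the mean level over the plasmacytoid dendritic cell list cow 3 was in rank 1 in both periods, as over the other B lineage list. That mean rests on 6 of the 8 genes of the list and is uncertain as to cell type. GZMB is also in the NK list, and the array names the TCF4 probe TCF7L2. TLR7 and TLR9 were well above background on 11 and 9 arrays. Over the NK and cytotoxic list cow 3 was in rank 2 and rank 1. Over 9 stromal genes, markers of the connective tissue of the lining, cow 3 was the lowest of 10 in both periods, at 2.11 in a range of 2.11 to 2.72 early and at 1.82 in a range of 1.82 to 2.49 late. Over the epithelial list it was 5th early and 8th late. The part of these cell types in the B cell result was not tested. The defining T cell and stromal markers CD3E, VIM and DCN were well above background on all 20 arrays.

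Late against early, 4 of 11 macrophage genes passed the threshold, all lower late. So did ICOS of 16 T cell genes, NKG7 of 7 NK genes, TLR7 of 6 plasmacytoid dendritic cell genes and HAND2 of 9 stromal genes. Over all genes 0.768% passed as lower late and 0.531% as higher late. TLR7 was well above background on 8 early and only 3 late arrays. It entered through its early signal, and most of its late values lay near background. The macrophage calls were CD68 (-1.79 ± 0.22; limma adjusted p = 0.00596), VSIG4 (-1.47), TYROBP (-1.07) and MSR1 (-0.85), each lower late in 10 of 10 cows. Without cow 3 all 4 of these and NKG7 still passed. The ICOS, TLR7 and HAND2 calls were lost without cow 3, and each held on leaving out only 1 of the 10 cows. Most calls over all genes were lost in this way too. They fell from 252 of 19391 genes to 59 without cow 3, and to between 34 and 151 on leaving out each cow in turn. On leaving out each cow in turn, VSIG4 and CD68 passed in all 10 fits, MSR1 in 9, and TYROBP and NKG7 in 6. At an unadjusted limma p under 0.05, 1978 of all 19391 genes were lower late and 2398 higher. Of the plasma cell, red blood cell and epithelial genes 0 passed after adjustment. At the unadjusted mark 2, 0 and 0 of them were lower and 1, 2 and 1 higher late. The smallest p values there belonged to CD38 (-0.52) and the kinase PIM2 (0.26), to the haemoglobin-stabilising protein AHSP (0.29) and the haemoglobin chain HBA (0.48), and to the keratins KRT18 (0.42) and KRT8 (0.26).

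**Figure D5:**
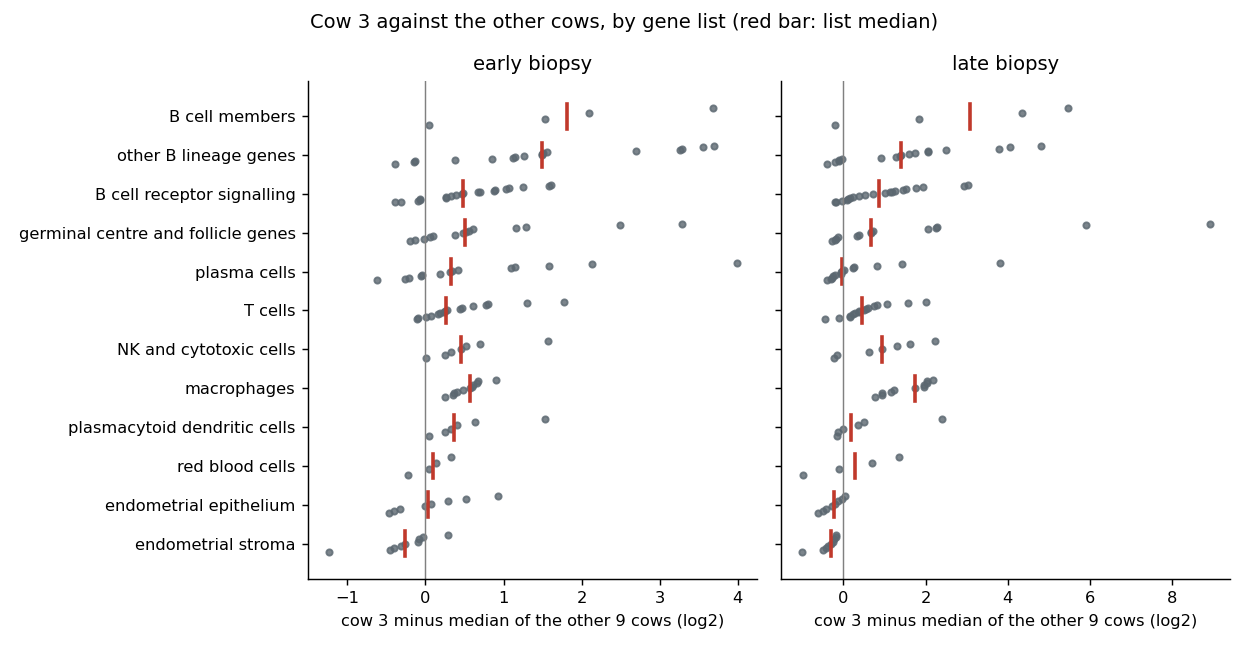
Level of cow 3 minus the median of the other 9 cows, in log2 units, for each tested gene (points) of 12 gene lists, early (left) and late (right), with the median of each list as a red bar. The median of the other B lineage genes stands at 1.49 early and 1.40 late, that of the macrophage genes at 0.58 and 1.74, and that of the stromal genes at -0.26 and -0.29.

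How far the members moved together was described by Pearson's r over the 20 arrays, which hold 2 arrays of each cow. MS4A1 and BLK had r = 0.84 and CD79A and BLK 0.76, while MS4A1 and CD79A had 0.75. Without cow 3 the same pairs had 0.60, 0.37 and 0.34. PAX5 had r between -0.20 and 0.09 with the tested probes of the other members. CD79B had r = 0.90 with MS4A1 and 0.74 without cow 3.

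The gene outside the set with the highest mean r to the 4 tested members was NAPSA, an aspartic protease, at 0.66 with cow 3 and 0.56 without it, followed by FCRL1, a receptor-like protein of B cells, at 0.64 and 0.42. MYO1G, a myosin of blood cells, and CD37, a tetraspanin of B cells, had a mean r of 0.64 and 0.63, and of 0.43 and 0.43 without cow 3. The mean takes in PAX5, with which NAPSA had r = 0.04. NAPSA had 0.89 with MS4A1, 0.87 with CD79A and 0.84 with BLK. Most like MS4A1 were TNFRSF13C, with r = 0.95 (0.89 without cow 3), and BCL11A, with 0.91 (0.76). Of the genes like CD79A, PTPRCAP, a partner of the phosphatase CD45, had 0.88 (0.75).

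BLK was most like TBC1D10C, an inhibitor of Ras and calcineurin in lymphocytes (0.90; 0.70 without cow 3), and MAP4K1, a kinase of blood cells (0.89; 0.65). Over the 18 arrays without cow 3 its nearest gene was WC1.3, a scavenger receptor of bovine gamma-delta T cells, with r = 0.81. PAX5 went with other genes: CRX, a photoreceptor transcription factor, with r = 0.85 (0.84 without cow 3), and MS4A10 with 0.85 (0.86).

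Within a period the biopsies differed by several weeks, so levels were also set against the day after calving. In limma 0 of the 4 members had a slope past the threshold early or late, as had 0% of all genes, and 0 had an unadjusted p under 0.05 in either period, against 5.65% of genes early and 1.38% late. BLK had the steepest early slope of the members, -0.32 ± 0.20 log2 units per 10 days (SE, n = 10; limma adjusted p = 0.935), and MS4A1 the steepest late slope, -0.34 ± 0.23 (unadjusted p = 0.172). For CD79A the slopes were -0.16 ± 0.13 early and -0.08 ± 0.08 late, and for PAX5 -0.10 ± 0.05 and 0.05 ± 0.02. Without cow 3 the early slopes were 0.049 for MS4A1, -0.12 for CD79A, -0.28 for BLK and -0.10 for PAX5, and the late slopes -0.22, -0.047, -0.072 and 0.053, with no call. Cow 8 was sampled early on the same day as cow 3, day 56, and cow 5 late on the same day as cow 3. On those days MS4A1 stood at -4.11 in cow 8 against -0.93 in cow 3, and at -4.35 in cow 5 against 0.12 in cow 3. These are pairs of single cows, and the part of sampling day in the level of cow 3 was not tested.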

How the data were processed

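The members and gene lists were chosen with earlier results of these data known. Per the file headers, 20 one-colour Agilent arrays were read by the authors with Feature Extraction 10.5.1.1, which gave the deposited background-subtracted intensity of each spot. Levels are its log2 value less the 75th percentile of all noncontrol spots on that array. A deposited table of log2 values, the same quantity after centring each probe (r at least 0.99997), served as an alternative. Control spots and outlier flags were left out and 43803 spots were averaged to 43653 probes. Probes well above background on at least 8 of 20 arrays entered (33764), and the probe of highest mean represented a gene. Through a RefSeq table, used for names only, 20595 probes were matched on accession, 10745 on symbol, 1407 on gene number and 376 on synonym; 4 more were matched after the data were seen, and 10526 kept the array's name.

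The comparison of periods used limma 3.58.1 in R 4.3.3, two-sided, with cow as a fixed block. Early and late levels were correlated over cows with 100000 permutations of the pairing, two-sided; 207 genes with a missing array were left out. Both were tested on simulated data. The pairing comes from titles and animal numbers; late source names give other cow numbers, which the labels leave unexplained. As a check, both arrays of a cow deviated together with r of -0.11 to 0.76 (median 0.42) over genes, above 0.1 in 8 of 10 cows and 0.54 in cow 3. The best match of an early array was the late array of its own cow in 7 of 10 cows. For late arrays the best early match was the own cow in 6 of 10, so the check leaves the pairing of some cows unsettled. Named are all members, in each other list the genes past the threshold or else the 2 of smallest p, and the 5 genes most like the members and 2 most like each; 1 gene that this rule names is not reported here. Alternatives are in the closing section; all arrays shared 1 scan day.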

Additional observations from a re-analysis of the deposited data

Results flagged for a closer look

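A biopsy that stood far from the other 9 of its period, by Dixon's test at its 95% critical value, was found in 12 of 20 groups of 10 arrays (10 probes in 2 periods); chance flags about 1 in 20 groups, and groups of different probes here share their arrays. In 11 of the 12 the biopsy was that of cow 3 and it was the highest. For the tested MS4A1 probe this held late, at 0.12, and for the second MS4A1 probe early, at -3.98, and late, at -2.96. CD79A stood apart early by both probes, at -0.52 and -4.73. BLK did so late, at 0.11, BANK1 early, at -4.37, and late, at -4.12, and CD79B early, at -3.37, and late, at -3.11. By 1 CR2 probe the early array of cow 3 was at -7.44, a spot not well above background. The 12th was PAX5 in the early biopsy of cow 4, at -4.11, the next cow being at -4.51.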

How the results depend on the processing

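The count of members past the threshold was 0 under every alternative run for late against early, for recurrence and for the day slopes, and on leaving out each cow in turn (0 to 0). Without the replicate block, that is without pairing by cow, the late minus early values were the same, -0.23 for MS4A1, -0.08 for CD79A, -0.10 for PAX5 and -0.50 for BLK, and the limma adjusted p rose to 0.906, 0.907, 0.620 and 0.645; no call changed. Late minus early changed sign for MS4A1 with normexp background correction (0.037) and for PAX5 with slide as a further block (0.54), and the second MS4A1 probe alone gave 0.076, the mean of both probes -0.080. Leaving out 1 cow moved CD79A between -0.17 and 0.025 (sign changed without cow 4) and MS4A1 between -0.46 and 0.084 (0.084 without cow 8 and 0.029 without cow 10). The recurrence r changed sign for PAX5 by Spearman's rho (-0.15), without the 2 farthest cows (-0.20) and without cow 4 (range on leaving out 1 cow -0.35 to 0.41). It did so without the 2 farthest cows for MS4A1 (-0.0088) and BLK (-0.078). With slide means removed the recurrence r was 0.68 for MS4A1, 0.54 for CD79A, 0.47 for BLK and 0.10 for PAX5. Under that setting 0 of 19184 genes passed, against 56 in the main run. The early day slope of MS4A1 ran from -0.29 to 0.050 on leaving out 1 cow, above 0 without cow 2, 3 or 6. The mean r of NAPSA with the members fell from 0.66 to 0.56 without cow 3, an alternative chosen after seeing the data, as was a floor under dim spots for recurrence. The cause of these changes was not tested. MS4A1 did not enter under the filter on all 20 arrays. The number of cows and, for CR2, BANK1 and the second CD79A probe, the signal over background limit the precision.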
